A study of Saccharomyces cerevisiae with 21 samples.

Results

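The coat protein complex I (COPI) of budding yeast was followed gene by gene through glucose withdrawal and multi-day growth. The 7 genes were chosen by name, as the subunits COP1 (YDL145C), SEC26 (YDR238C), SEC27 (YGL137W), SEC21 (YNL287W), RET2 (YFR051C), SEC28 (YIL076W) and RET3 (YPL010W), out of 5767 genes listed in the deposited tables. No subunit was selected on a threshold, but the complex was picked with earlier results on the counts and polarity scores of these libraries known. No value here is therefore independent support for a pattern already seen in them.

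All libraries came from wild-type BY4741, a MATa laboratory strain with the genotype his3Δ1 leu2Δ0 met15Δ0 ura3Δ0. In the first experiment, cells in synthetic complete medium with 2% glucose were moved to the same medium without glucose for 15 min or kept in log phase, with 2 libraries each, and both groups were pretreated with 100 µg/mL cycloheximide (CHX), an inhibitor of translation elongation, for 1 min before harvest. In the second experiment, the time course, cells were collected without pretreatment in log phase and after 1, 5 and 15 min without glucose (2 libraries each) and after 10, 20 and 30 min (1 library each), beside 1 CHX-pretreated 15 min library made with them. In the third experiment cells grown in YPD, a rich medium, were collected without pretreatment in log phase, after 1 day (postdiauxic shift) and after 5 days (stationary phase), with 1 library each. All 19 libraries are ribosome profiling libraries, in which fragments of mRNA protected by ribosomes (RPFs) are sequenced, so a count reports how many ribosomes were recovered on a gene relative to all others. RPF counts alone do not separate fewer ribosomes per mRNA from less mRNA. The matched RNA-seq and the glucose readdition samples were not analysed here.

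COPI forms the coat of vesicles that bud from the Golgi, and it carries escaped proteins back to the endoplasmic reticulum (ER) and between Golgi cisternae. The GTPase Arf1 recruits the complex as one unit to the membrane, where it binds sorting signals on cargo such as the dilysine motif of ER membrane proteins. The outer layer is built from Cop1 (alpha), Sec27 (beta prime) and Sec28 (epsilon), and the inner, adaptor-like layer from Sec26 (beta), Sec21 (gamma), Ret2 (delta) and Ret3 (zeta). Coatomer is named for this heptamer, and in yeast each subunit except Sec28 is needed for growth.

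The genes differ widely in length, which bears on each count. COP1 has the longest coding sequence (3606 nt), followed by SEC26 (2922 nt), SEC21 (2808 nt), SEC27 (2670 nt), RET2 (1641 nt), SEC28 (891 nt) and RET3 (570 nt). In the R64 genome COP1 lies at chromosome IV 194571 to 198176 and SEC26 at chromosome IV 937895 to 940816, both on the minus strand. RET3 lies at chromosome XVI 535018 to 535587 and SEC28 at chromosome IX 216658 to 217548, both on the plus strand. SEC21 lies at chromosome XIV 91994 to 94801 on the plus strand, and RET2 at chromosome VI 250163 to 251803 on the minus strand. SEC27 is the only subunit with an intron, a feature that 4.81% of the listed genes shared. It lies on the plus strand of chromosome VII from 249869 to 252738, with a first exon of 18 nt, an intron of 200 nt and a second exon of 2652 nt. Its splice signals are shown because the deposited gene length counted this intron and the coding length used below did not. Capitals mark the start of the intron, the branch point motif and the end of the intron, 5′ to 3′ on the plus strand of R64.
SEC27 exon 1 and 5′ splice site, chrVII:249869-249898: atgaagttggatataaagGTATGTtaccag
SEC27 branch point, chrVII:250002-250024: agattagtTACTAACaggaagat
SEC27 3′ splice site and start of exon 2, chrVII:250072-250098: gtacatttatgaTAGaaaacttttagt

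Depth set what could be seen. The pretreated libraries held 1862525 to 5170260 reads in genes and the deep libraries of the time course 3523240 to 7896332. The replicate 2 libraries of the time course and its 10, 20 and 30 min libraries held only 71816 to 135958 reads, so that RET3 had 3 to 12 reads in each of them. The YPD libraries held 169545 to 652361 reads. The labels record ribosomal RNA removal for the pretreated libraries except the 15 min replicate 2. Of the genes changed in this strain, LEU2, MET17 and URA3 stood at no more than 13.9 CPM in any library (CPM, reads scaled to a common library total), while HIS3, of which his3Δ1 removes only an internal part, had 11.8 to 128 CPM. Nothing in the labels says that replicates came from separate cultures, so p-values measure the spread between these libraries.

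The 7 genes together took a small and fairly steady share of all reads in synthetic medium. They held 0.290% and 0.386% of reads in the pretreated 15 min libraries, against 0.255% and 0.301% in pretreated log phase, and these ranges overlapped. Over the 12 libraries of the time course the share stayed between 0.230% and 0.296%. In YPD the share was 0.292% in log phase, 0.228% after 1 day and 0.0773% after 5 days (Wilson 95% interval 0.0651% to 0.0917%, counting error only). The complex as a whole therefore had its lowest share in the stationary phase library.

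**Figure D1:**
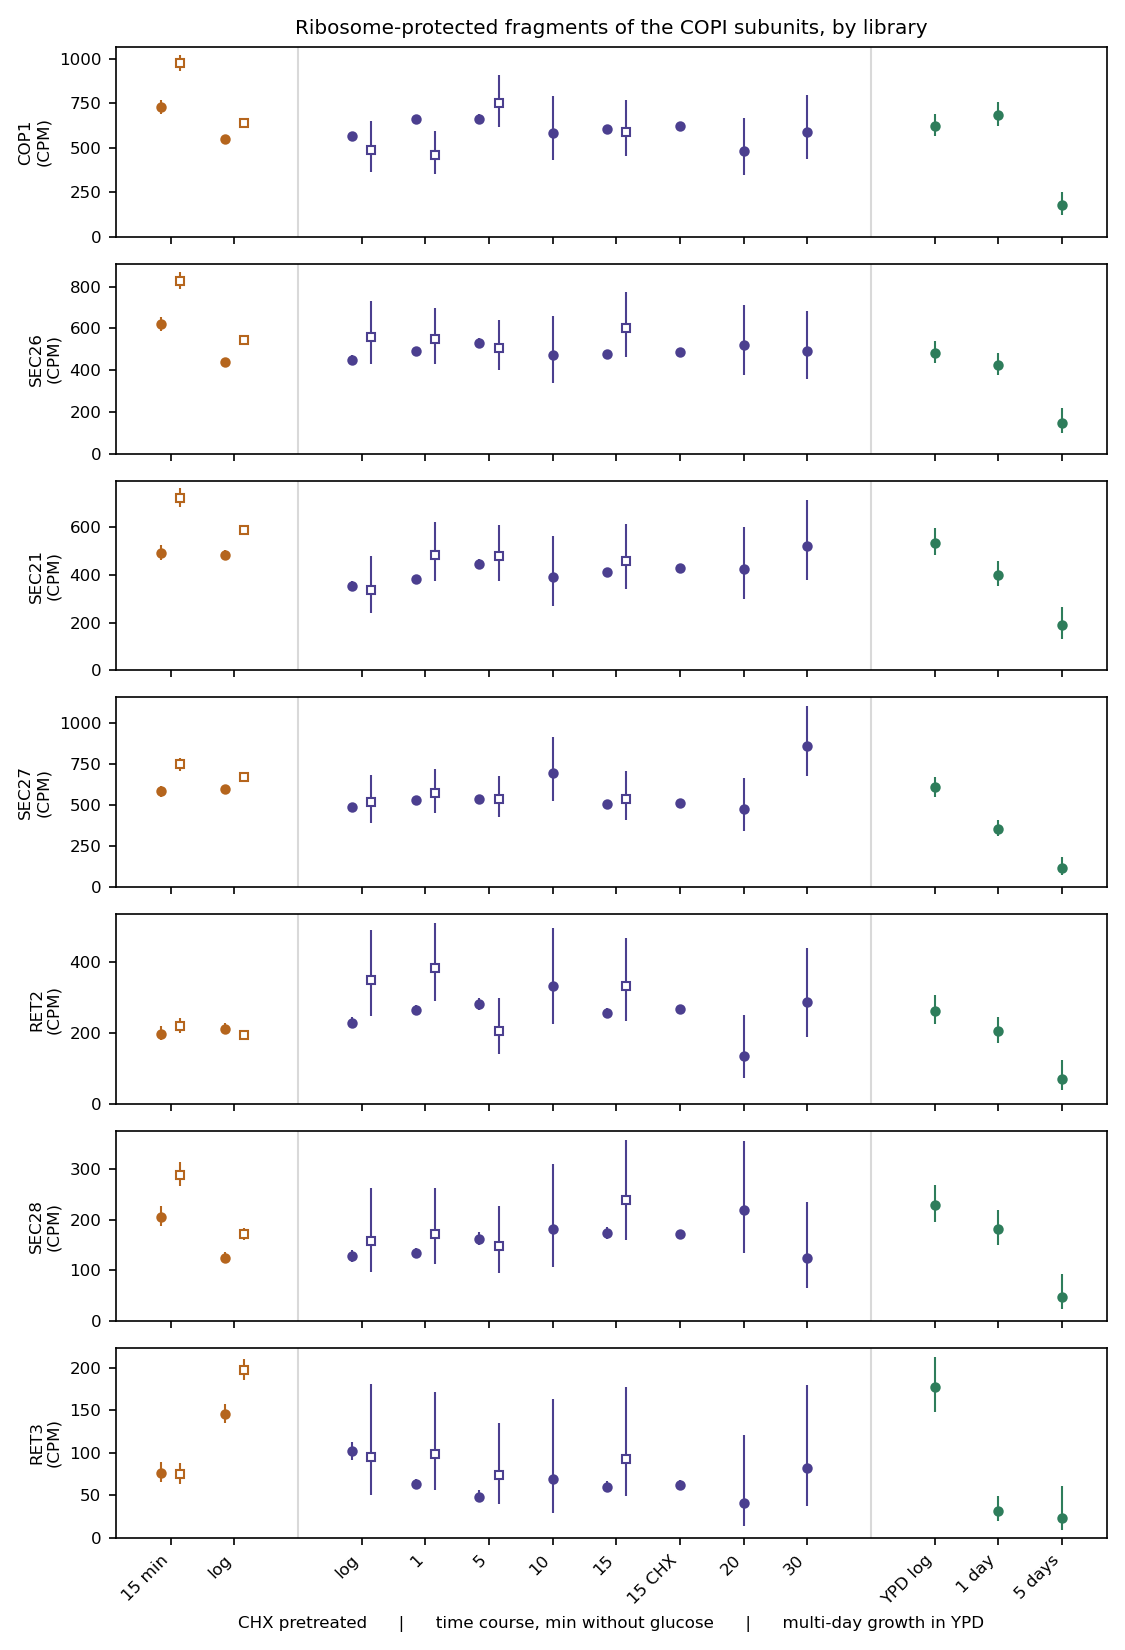
RPF counts (CPM) of each COPI subunit in all 19 libraries, with Wilson 95% intervals for counting error. Filled circles are replicate 1 and open squares replicate 2, the gray lines separate the 3 experiments, and 15 CHX is the pretreated library made with the time course. RET3 stood at 76.5 and 74.6 CPM in the pretreated 15 min libraries, below both log phase libraries, and all 7 genes were lowest in the 5 day library.

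RET3, which encodes zeta, the smallest subunit of the inner layer, fell after 15 min without glucose in the CHX-pretreated libraries. It had 153 and 139 reads in the starved libraries, against 623 and 1024 reads in log phase. Scaled to library size this was 76.5 and 74.6 CPM in the starved libraries, against 146 and 198 CPM in log phase, so the groups did not overlap. The means were 75.6 ± 1.31 CPM in starved cells and 172 ± 37.0 CPM in log phase (SD, n = 2 each). The fitted log2 fold change was -1.16 (SE 0.24) with an adjusted p of 0.0318 in edgeR's quasi-likelihood test, and RET3 was the only subunit called. With the replicate number as a block SEC28 was called too (adjusted p = 0.0250 in edgeR), beside 16.5% of all genes called higher and 14.8% lower in that fit. Over all 5090 genes tested 4.93% were called lower and 7.72% higher, or 12.7% in either direction, so 1 of 7 is close to the background. The call was lost without log phase replicate 2 (log2 fold change -1.05, adjusted p = 0.0520 in edgeR) and without 15 min replicate 2 (-0.97, adjusted p = 0.128 in edgeR).

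Gene length moved with this result. Among the 803 tested genes with a coding sequence under 600 nt, the class that holds RET3, the median log2 fold change was -0.49 with quartiles of -1.08 and 0.26, and 15.4% were called lower. RET3 therefore lay just below the lower quartile of short genes. In the 642 genes of 2400 to 4000 nt the median was 0.40 with quartiles of 0.13 and 0.69, and none was called lower. The part of length in the RET3 value was not tested.

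SEC28, the next shortest gene, went the other way by value. SEC28 encodes epsilon, which steadies Cop1 in the outer layer. It had 205 and 289 CPM in the pretreated starved libraries, against 124 and 171 CPM in log phase, and the groups did not overlap. The log2 fold change was 0.74 (SE 0.23) and the adjusted p of 0.0804 in edgeR did not pass the threshold. Genes of 600 to 1200 nt, the class of SEC28, had a median of -0.26 and an upper quartile of 0.29, so SEC28 lay above most genes of its length.

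The 2 largest subunits also had higher values that did not pass the test. COP1, the alpha subunit and scaffold of the outer layer, had 727 and 974 CPM in the starved libraries, against 550 and 639 CPM in log phase. Its log2 fold change was 0.51 (SE 0.27, adjusted p = 0.235 in edgeR). SEC26, the beta subunit, had 619 and 829 CPM in starved cells, against 438 and 544 CPM in log phase. Its log2 fold change was 0.56 (SE 0.26, adjusted p = 0.195 in edgeR). Both genes lay without overlap between groups, and both were within the quartiles of their length class. How many of all genes lie without overlap was not counted in this or any other comparison here. The lack of overlap in RET3, SEC28, COP1 and SEC26 therefore has no background to be read against.

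The remaining 3 subunits overlapped between starved and log phase cells. SEC27, the beta prime subunit, which reads dilysine signals on cargo together with alpha, had 585 and 749 CPM in starved cells, against 601 and 675 CPM in log phase. SEC21, the gamma subunit, had 491 and 723 CPM in starved cells, against 482 and 589 CPM in log phase. RET2, the delta subunit, had 199 and 220 CPM in starved cells, against 213 and 196 CPM in log phase. Their log2 fold changes were 0.06 (SE 0.26), 0.17 (SE 0.26) and 0.03 (SE 0.24). Across the complex the log2 fold changes had a median of 0.17, beside -0.00 over all genes tested, and ran from -1.16 for RET3 to 0.74 for SEC28.

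**Figure D2:**
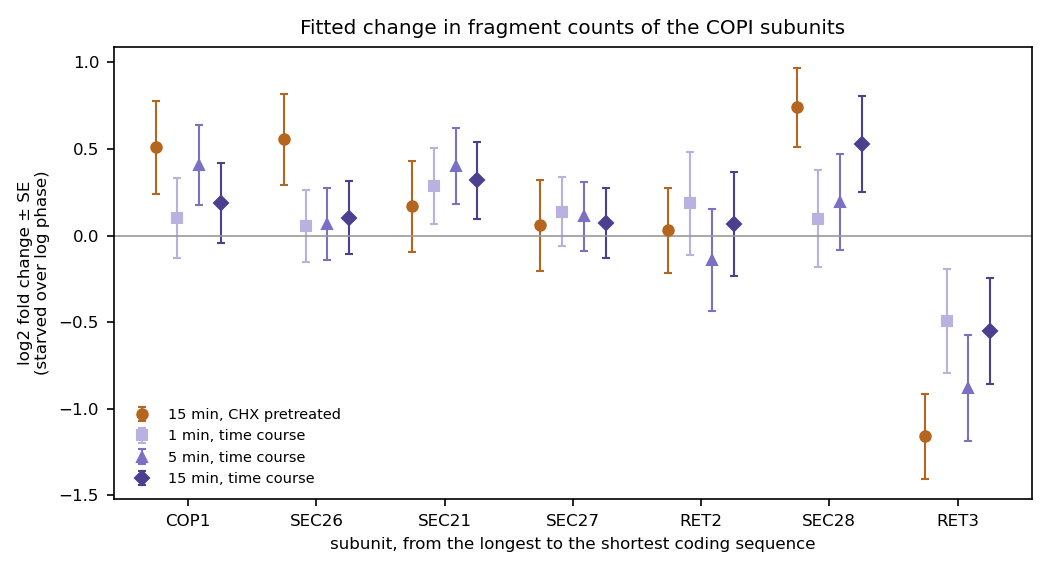
Fitted log2 fold change of RPF counts, starved over log phase, with its standard error, for each subunit from the longest coding sequence (left) to the shortest (right). Circles are the CHX-pretreated 15 min comparison, and squares, triangles and diamonds the 1, 5 and 15 min comparisons of the time course, which share their log phase libraries. RET3 was below 0 in all 4 of these fits, which have no replicate block, and was called in the pretreated one only.

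RET3 also had the lowest log2 fold change of the 7 at each time of the time course, where no subunit passed the test. RET3 had 102 CPM in log phase, 63.1 CPM after 1 min, 48.5 CPM after 5 min and 59.7 CPM after 15 min in the replicate 1 libraries. The shallow replicate 2 libraries gave 95.2 CPM in log phase, 98.2 CPM after 1 min, 73.6 CPM after 5 min and 93.3 CPM after 15 min, from 9, 12, 10 and 9 reads. The 5 min and 15 min values were thus below both log phase values, while the 1 min values overlapped them. The fitted log2 fold changes against log phase were -0.49 (SE 0.30) at 1 min, -0.88 (SE 0.31) at 5 min and -0.55 (SE 0.30) at 15 min. At 5 min the unadjusted p was 0.0127 and the adjusted p 0.650 in edgeR. RET3 lay at the 12th, 5.4th and 11th percentile of all genes tested at the 3 times. The genes under 600 nt had medians of -0.43, -0.50 and -0.29 at the same times.

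None of the 7 subunits was called at 1, 5 or 15 min in edgeR, with unadjusted p under 0.05 for 0, 1 and 0 of them. DESeq2 called 0 as well, but it gave no adjusted p for RET3 at any of these times, nor for RET2 and SEC28 at 15 min. With the replicate number as a block RET3 was called at 5 min (log2 fold change -0.97, adjusted p = 0.000386 in edgeR), beside 3.98% of genes called lower in that fit. Without the block the background was as sparse, with 0% of 5255 genes called at 1 min and at 5 min and 0.152% at 15 min (0.0381% higher and 0.114% lower), and 132, 225 and 236 genes had an unadjusted p under 0.05. The shallow replicate 2 libraries entered every one of these fits.

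SEC28 was again the highest of the 7 by log2 fold change at 15 min. It had 173 and 238 CPM at 15 min, against 127 and 159 CPM in log phase, a log2 fold change of 0.53 (SE 0.28, adjusted p = 1.00 in edgeR). At 1 and 5 min it was within its standard error of no change, with log2 fold changes of 0.10 (SE 0.28) and 0.19 (SE 0.28). SEC21 had higher CPM than both log phase libraries at all 3 times, at 381 and 483 CPM after 1 min, 444 and 478 CPM after 5 min and 411 and 456 CPM after 15 min, against 355 and 338 CPM in log phase. Its log2 fold changes of 0.29, 0.40 and 0.32 did not pass the test. The remaining 4 subunits had log2 fold changes between -0.14 (RET2 at 5 min) and 0.41 (COP1 at 5 min). COP1 at 5 and 15 min and SEC27 at 1 and 5 min also had higher CPM than both log phase libraries. SEC26 and RET2 overlapped log phase at all 3 times.

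In the pretreated 15 min library made with the time course, COP1 stood at 623 CPM, SEC26 at 489 CPM, SEC27 at 511 CPM, SEC21 at 428 CPM, RET2 at 267 CPM, SEC28 at 171 CPM and RET3 at 62.4 CPM. The 15 min replicate 1 library without pretreatment gave 603 CPM for COP1, 173 CPM for SEC28 and 59.7 CPM for RET3. At 10, 20 and 30 min RET3 had 5, 3 and 6 reads, a depth at which no difference could be seen. SEC27 reached 864 CPM at 30 min from 63 reads, its highest value in any library.

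From 1 to 5 min and from 5 to 15 min no subunit was called in edgeR, DESeq2 or limma, and none had an unadjusted p under 0.05 in either step. Over all genes edgeR called 0% in both steps, with 29 and 31 genes at an unadjusted p under 0.05. RET3 had log2 fold changes of -0.38 (SE 0.31) from 1 to 5 min and 0.33 (SE 0.31) from 5 to 15 min.

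The 15 min effect was set against CHX pretreatment in one fit of both experiments. Pretreated and untreated libraries also differed in how monosomes were isolated and libraries built, so pretreatment and preparation cannot be told apart. The effect of starvation on RET3 was lower by 0.67 on the log2 scale with pretreatment (difference -0.67, SE 0.40, adjusted p = 0.657 in edgeR). No subunit was called for such a difference, none had an unadjusted p under 0.05, and DESeq2 also called 0 of 7, while edgeR called 0.614% of 5377 genes. In the pretreated log phase libraries RET3 stood at 146 and 198 CPM, above the 102 and 95.2 CPM of log phase without pretreatment, a contrast with no test here.

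Per unit of length RET3 changed its place among the subunits. Each library's counts were divided by the coding length and scaled to a common total (TPM), and this density was divided by the median of the 7 subunits in that library. In pretreated starved cells RET3 stood at 0.575 ± 0.128 of the subunit median, against 1.74 ± 0.0930 in pretreated log phase (SD, n = 2 each). In the 11 deepest libraries RET3 was the densest subunit in 3, the 2 pretreated log phase libraries and log phase in YPD. It was the least dense or next to least dense in 7, which are the starved and 1 day libraries among them. In the remaining one, log phase of the time course, RET3 stood at 1.16 of the subunit median in replicate 1. SEC28 was the densest subunit in 5 of the 11 libraries, with 1.17 ± 0.0399 of the median in pretreated starved cells, against 0.957 ± 0.0605 in pretreated log phase.

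Over all 19 libraries RET3 ran from 0.384 to 1.81 of the subunit median. SEC26 had the narrowest range, 0.867 to 1.18, and COP1 lay between 0.677 and 1.33. SEC27 ran from 0.900 to 1.92, SEC28 from 0.820 to 1.63 and RET2 from 0.496 to 1.26. SEC27 lay at 1.06 ± 0.0339 in pretreated starved cells and 1.40 ± 0.114 in pretreated log phase, and with the intron counted in its length the means were 1.01 and 1.30. RET2 had the lowest density in 4 of the 11 deepest libraries, with 0.549 ± 0.0740 of the median in pretreated starved cells and 0.736 ± 0.162 in pretreated log phase.

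**Figure D3:**
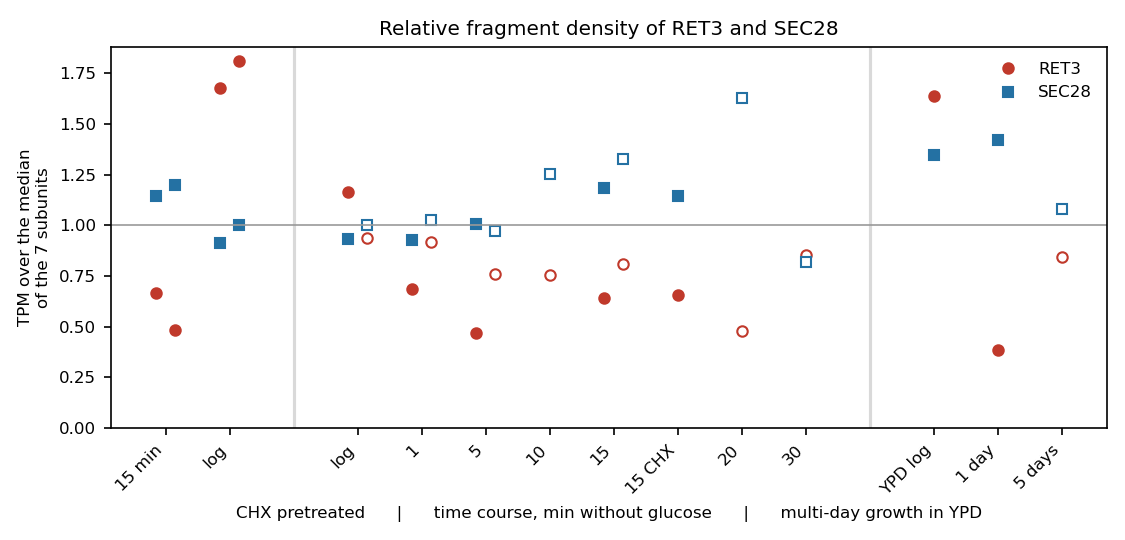
Fragment density (TPM) of RET3 (circles) and SEC28 (squares) divided by the median of the 7 subunits in the same library. Open symbols are libraries under 500000 reads. RET3 lay at 0.665 and 0.484 in pretreated starved cells, against 1.68 and 1.81 in pretreated log phase, and at 0.384 after 1 day in YPD, with 1.64 in YPD log phase.

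The position of ribosomes along the genes was read from the polarity score. The polarity score of a gene is negative when its RPFs gather in the upstream part of the coding sequence and positive when they gather downstream. With CHX pretreatment 5 of the 7 subunits had a higher score after 15 min of starvation in limma, beside 41.5% of the 3979 genes tested (0.503% had a lower score, and 42% were called in either direction). The shift was therefore broad, with a median difference of 0.185 over all genes and 0.308 over the subunits. It was more frequent in long genes, with 66.8% of genes of 2400 to 4000 nt called higher, and the part of length in the subunits' count was not tested.

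SEC26 had the largest difference. Its scores were 0.203 and 0.263 in starved cells, against -0.0928 and -0.131 in log phase, a difference of 0.345 (SE 0.0517, adjusted p = 0.0117 in limma). RET2 scored 0.0422 and 0.177 in starved cells, against -0.245 and -0.216 in log phase, a difference of 0.339 (SE 0.0625, adjusted p = 0.0119 in limma). COP1 averaged 0.140 ± 0.0110 in starved cells and -0.176 ± 0.00704 in log phase (SD, n = 2 each), a difference of 0.316. SEC21 and SEC27 differed by 0.308 and 0.252. The starved libraries lay above both log phase libraries for all 5 genes, a trait not counted over all genes. For genes of 2400 to 4000 nt the median difference was 0.254, with an upper quartile of 0.316.

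In the main fit SEC28 and RET3 were not called. Both were called with the replicate number as a block (adjusted p = 0.0451 for SEC28 and 0.0149 for RET3 in limma). That fit called 56.1% of all genes higher. Calls among SEC28 and RET3 also changed when 1 starved library was left out. SEC28 kept a negative score in starved cells, at -0.149 and -0.0802, against -0.214 and -0.273 in log phase. Its difference of 0.129 (SE 0.0567, adjusted p = 0.102 in limma) was near the median of 0.142 for genes of 600 to 1200 nt. Among genes with over 25 reads SEC28 lay at the 10.8th and 28.8th percentile of scores in the starved libraries. RET3 scored 0.221 and -0.0139 in starved cells, against 0.0323 and -0.164 in log phase, so its groups overlapped (difference 0.170, SE 0.0974, adjusted p = 0.189 in limma). Without either log phase library the number of subunits called in limma was 0 of 7, with 0 and 1 genes called higher over the whole table, although the differences of the 5 genes stayed between 0.244 and 0.364.

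**Figure D4:**
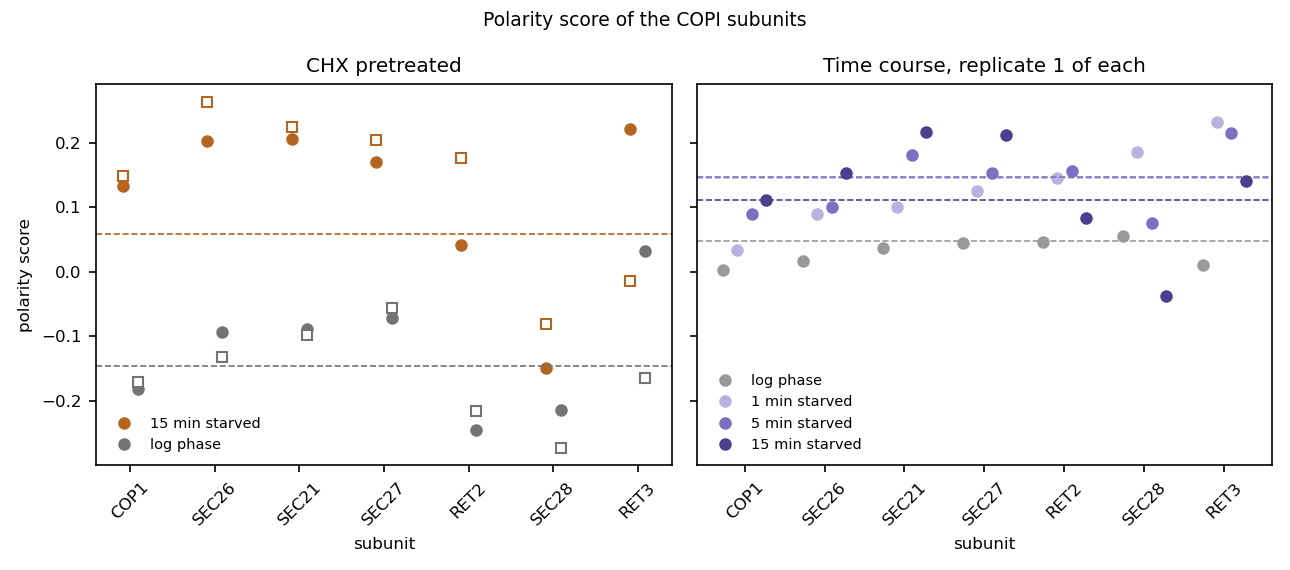
Polarity score of each subunit in CHX-pretreated libraries (left, filled circles replicate 1 and open squares replicate 2) and in the replicate 1 libraries of the time course (right). Dashed lines are the medians over all genes with more than 25 reads in the replicate 1 library. SEC26 scored 0.203 and 0.263 in pretreated starved cells, against -0.0928 and -0.131 in pretreated log phase, and SEC28 stayed below 0 in both groups.

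Without pretreatment the log phase scores were already near 0 and the differences smaller. Scores were tested only where all 8 libraries held over 25 reads for the gene, which COP1, SEC26, SEC21, SEC27 and RET2 met among 488 genes and SEC28 and RET3 did not. All 5 had positive fitted differences from log phase at 1, 5 and 15 min, beside 94.3%, 88.1% and 83.0% of the 488 genes. In replicate 2, however, SEC21 scored -0.00314 at 1 min and 0.0315 at 15 min, below its 0.0399 in log phase. The test in limma called 0 of 5 at each time, with an unadjusted p under 0.05 for 1, 3 and 2 of them. With the replicate number as a block limma called SEC26 at 5 min (adjusted p = 0.0375) and SEC27 at 15 min (adjusted p = 0.0225), beside 36.3% and 23.0% of genes called higher. Without the block, over the 488 genes 7.17% were called higher at 1 min, 4.30% at 5 min and 0% at 15 min, where 126 genes had an unadjusted p under 0.05. SEC27 had the largest difference at 15 min, with scores of 0.212 and 0.188, against 0.0446 and 0.0609 in log phase (difference 0.148, SE 0.0425, adjusted p = 0.0744 in limma). SEC26 differed by 0.134 (SE 0.0550) at 1 min, 0.147 at 5 min and 0.113 at 15 min. COP1 differed by 0.0267 (SE 0.0412) at 1 min, where it lay at the 12.7th percentile of the genes tested, and by 0.105 at 5 min and 0.108 at 15 min.

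The 2 shortest subunits could be followed in the deep replicate 1 libraries only. SEC28 scored 0.0547 in log phase, 0.185 at 1 min, 0.0755 at 5 min and -0.0375 at 15 min, where it lay at the 13.6th percentile of genes. RET3 scored 0.0105 in log phase, 0.232 at 1 min, 0.215 at 5 min and 0.140 at 15 min. RET2 had 0.0457, 0.145, 0.156 and 0.0831 at the same times, and SEC21 had 0.0368, 0.0998, 0.181 and 0.217. The medians over all genes in these replicate 1 libraries were 0.0481, 0.145, 0.146 and 0.112. RET3 and RET2, like the median, were lower at 15 min than at 5 min there, and SEC21 was higher. In the shallow replicate 2 libraries SEC21 had 0.0399, -0.00314, 0.0496 and 0.0315, so it was lower at 15 min than at 5 min. RET2 had -0.0553, -0.0299, 0.143 and 0.132 in replicate 2. For SEC28 and RET3 the scores are from single libraries, so their courses have no replicate check.

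The starvation effect on polarity was set against pretreatment for the 5 genes with enough reads. The difference was largest for SEC26 at 0.232 (SE 0.0842, adjusted p = 0.101 in limma), and COP1 had 0.208 (SE 0.0648, adjusted p = 0.0722 in limma). SEC27 had 0.104 (SE 0.0670). No subunit was called, while 4 of 5 had an unadjusted p under 0.05, and 2.45% of the 489 genes were called. With the replicate number as a block COP1 (adjusted p = 0.0482 in limma) and SEC26 (adjusted p = 0.0395 in limma) were called, beside 30.1% of genes called higher.

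In multi-day growth the subunits separated by time. After 1 day RET3 alone was lower by 2-fold or more, at 31.3 CPM (18 reads) after 1 day, against 178 CPM (116 reads) in YPD log phase, a log2 ratio of -2.47 (95% counting interval -3.19 to -1.75). The background was 25.3% of 3572 genes lower and 33.1% higher by 2-fold or more, so 1 of 7 is not above it. These are the genes with over 25 reads in at least one of the 2 libraries compared, which all 7 subunits had. RET3, with 18 reads after 1 day, met this minimum through log phase only. The genes under 600 nt had a median log2 ratio of -1.69. SEC27 was next, with 356 CPM after 1 day, against 609 CPM in log phase, a log2 ratio of -0.77. The remaining 5 lay between -0.41 for SEC21 and 0.13 for COP1, and the median of all genes was 0.20.

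After 5 days all 7 were lower by 2-fold or more. The background was high here too, with 51.6% of 2994 genes lower and 18.8% higher by 2-fold or more. SEC26 (25 reads after 5 days), SEC27 (20), RET2 (12), SEC28 (8) and RET3 (4) met the minimum of over 25 reads through log phase only. Entry through log phase favors lower ratios, so the count of 7 is no support for a fall. COP1 had 177 CPM after 5 days, against 624 CPM in log phase, from 30 and 407 reads, a log2 ratio of -1.81. The other subunits lay between -1.50 for SEC21, from 32 reads, and -2.86 for RET3, from 4 reads after 5 days. The median of the 7 was -1.88, beside -1.09 over all genes, a gap of -0.79. Scaling by trimmed mean of M values (TMM) instead of library totals moved the median of all genes to -0.53 and left the gap at -0.79, with 6 of the 7 lower by 2-fold or more. With 1 library per stage these ratios have no replicate check, and the intervals cover counting error only.

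**Figure D5:**
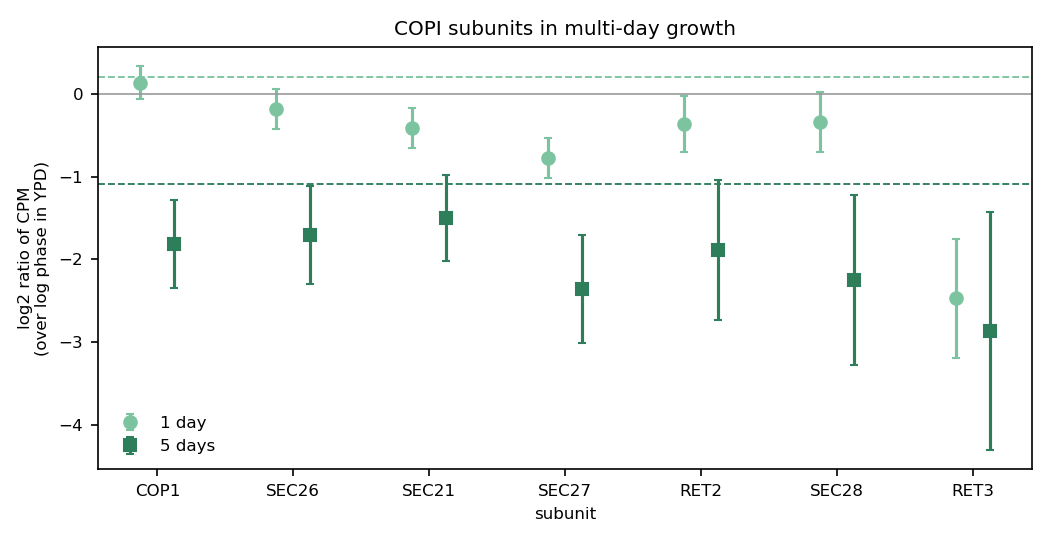
Log2 ratio of CPM over YPD log phase (pseudocount 1 CPM) for each subunit after 1 day (circles) and 5 days (squares), with 95% counting intervals. Dashed lines are the medians over all genes, 0.20 after 1 day and -1.09 after 5 days. The interval of RET3 after 1 day, -3.19 to -1.75, lay apart from those of the other subunits.

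Polarity in YPD was near 0 in log phase for most subunits, between -0.104 for SEC21 and 0.0573 for SEC28. After 1 day the 6 subunits with over 25 reads in both libraries were all higher, by 0.112 for COP1 to 0.206 for SEC26, with a median of 0.161 beside 0.148 over 2136 genes, of which 86.2% were higher. After 5 days only COP1 (difference -0.193) and SEC21 (0.00919) had enough reads.

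The genes that work with COPI were read from a list of 21 partners, which includes the Arf GTPases, their exchange factors and activating proteins, cargo receptors and the tethers and SNAREs of COPI vesicles. With pretreatment 4 of the 21 were lower and 0 higher in edgeR, beside the background of 4.93% and 7.72%. They were ERP2 (log2 fold change -1.54, adjusted p = 0.0167 in edgeR) of the p24 cargo receptor family, BET1 (-1.91), an ER to Golgi SNARE, ARF1 (-1.36), the GTPase that recruits the coat, and ERD2 (-1.03), the receptor for HDEL proteins. ARF1 had 264 and 229 CPM in starved cells, against 637 and 647 CPM in log phase. These 4 genes are short, with coding sequences of 648, 429, 546 and 660 nt. The list had a median of -0.42, beside -0.00 over all genes. In the time course 0 of 21 partners were called at 1, 5 or 15 min in edgeR, with an unadjusted p under 0.05 for 0, 6 and 4 of them in edgeR and medians of -0.13, -0.40 and -0.48. DESeq2 also called 0, but gave no adjusted p for 14, 14 and 20 of the 21.

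Coats of other routes were read the same way. Of the 10 genes of the COPII coat, which carries cargo out of the ER, SEC16 rose and none fell. SEC16, the scaffold of ER exit sites, had 981 and 895 CPM in starved cells, against 404 and 343 CPM in log phase (log2 fold change 1.33, SE 0.33, adjusted p = 0.0458 in edgeR). Its coding sequence of 6588 nt is the longest of the list, and genes of 4000 nt or more had a median of 0.86. Of the 16 clathrin and adaptor genes 0 were called in edgeR, 3 had an unadjusted p under 0.05, DESeq2 called 2, and the median was -0.01. By polarity 11 of 19 partners, 7 of 10 COPII genes and 10 of 15 clathrin and adaptor genes were higher in limma and none was lower, beside 41.5% of all genes tested called higher. ARF1 differed by 0.334, SEC16 by 0.311 and APL5, an adaptor subunit of the AP-3 coat, by 0.316. After 1 day in YPD 10 of 17 measured partners were lower by 2-fold or more, beside the 25.3% background. Of the COPII genes 2 of 10 were lower at that stage, and of the clathrin and adaptor genes 2 of 12. The part of gene length in these counts was not tested. After 5 days 11 of 17 partners, 6 of 10 COPII genes and 6 of 12 clathrin and adaptor genes were lower, beside the 51.6% background. At both stages the measured genes had over 25 reads in log phase or in the later library. Entry through log phase favors lower ratios, so these counts are no support for a fall. How many list members entered that way was not counted.

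Across libraries the subunits were compared by the correlation of their log2 CPM, centered within each experiment, with the mean of the other 6. The 19 libraries differ in depth and, between experiments, in preparation. Over them r was 0.84 for SEC27, 0.78 for SEC26, 0.75 for SEC21, 0.71 for RET2, 0.62 for COP1, 0.56 for SEC28 and 0.35 for RET3. Among the r of genes outside the complex with the same mean, SEC27 lay at the 99.3rd percentile and SEC26 at the 97.1st. SEC21 lay at the 95.9th, RET2 at the 93.4th, COP1 at the 89.2nd, SEC28 at the 84.7th and RET3 at the 75.2nd. The order differed over the time course alone, where r was 0.75 for RET2, 0.60 for SEC26, 0.44 for RET3, 0.42 for SEC27, 0.38 for SEC21, 0.28 for COP1 and -0.25 for SEC28. Among 3579 genes the 5 most like the mean of the complex were NMT1 (r = 0.95), the N-myristoyltransferase, ALA1 (0.94), the alanyl-tRNA synthetase, SXM1 (0.94), a nuclear transport receptor, EMC1 (0.93), a subunit of the ER membrane complex, and YDR222W (0.93). These values are descriptions across libraries of unequal depth and carry no test.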

How the data were processed

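Raw RPF counts and polarity scores per gene were deposited by the authors as 1 table with a sheet per library. Per the labels and methods, reads of libraries without pretreatment were trimmed with cutadapt, cleared of noncoding RNA, mapped by Bowtie to assembly R64, stripped of duplicates by molecular identifier and counted per gene with HTSeq. For pretreated libraries the methods cite an earlier protocol for trimming and alignment. The deposited polarity score was made by the authors with custom scripts. Genes not listed in a sheet were set to a count of 0. Value columns with no sample numbered 0.

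Counts were tested with edgeR 4.0.16 (TMM, filterByExpr, quasi-likelihood) and polarity with limma 3.58.1 where each fitted library had over 25 reads for the gene, in R 4.3.3, with Benjamini-Hochberg adjustment over all genes tested and a threshold of 0.05. Pretreated libraries were fitted alone, the 8 replicated time course libraries together, and both experiments together for the difference of effects. DESeq2 1.42.0, RLE normalization, no filter, other read minimums, leaving out each library, only the compared groups, and a replicate block were the alternatives, and a pool block for the time course was added after seeing the data. The sheet key puts replicate 1 of the time course in pool 1 and replicate 2 in pool 2, except at 15 min, where they are the other way round. Both tests were tested on simulated data. Multi-day ratios used a pseudocount of 1 CPM. Coordinates and coding lengths came from the RefSeq annotation of R64, in which 5762 of 5767 genes matched.

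The members and gene lists were chosen with earlier results of these data known. Named genes were the 7 subunits, up to 4 called members of each list with the smallest adjusted p per comparison, and the 5 genes most like the complex.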

Additional observations from a re-analysis of the deposited data

How the results depend on the processing

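Of 330 tallied values of single subunits under alternatives, 300 kept their direction and their side of the threshold, 12 lost the call, 11 gained one, 5 changed sign and 2 moved beyond counting error. The tally is partial. In the time course it held RET3 and SEC28 by counts and COP1, SEC26 and SEC27 by polarity, and no steps between times. Without log phase replicate 1 of the time course, the median log2 fold change of all 7 was -0.14 at 1 min and -0.03 at 5 min. In the main fit it was 0.10 and 0.11, so further signs changed outside the tally. Leaving out 1 library at a time, the number of subunits lower by counts with pretreatment ranged from 0 to 1 and the number higher by polarity from 0 to 6 of 7. The share of all genes called in these fits also changed with the library left out. By polarity it ran from none to most genes, and the fits with the most subunits higher called most of all genes higher. Each of these fits leaves 1 library in a group, so neither range of calls sets the subunits apart from other genes. For the difference of polarity effects by pretreatment, the median of the 5 subunits ranged from 0.17 to 0.23 with 1 library left out. Over all genes tested it ranged from 0.13 to 0.16. COP1 changed its side of the threshold without the pretreated 15 min replicate 1, a fit that also called far more of all genes. The sign changes within the tally were in uncalled values. The log2 fold change of RET2 with pretreatment ranged from -0.13 to 0.21. That of SEC28 ranged from -0.14 to 0.19 at 1 min and from -0.028 to 0.29 at 5 min. RET3 stayed negative, from -1.38 to -0.97 with pretreatment, -0.65 to -0.17 at 1 min and -0.67 to -0.20 at 15 min, and also at 5 min. The lone library of an arm was then assumed to vary like the other groups.

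Same-numbered libraries deviated together (r = 0.43 with pretreatment and 0.75 to 0.83 in the time course, across genes), and the methods say that part of a culture was starved while the rest stayed in log phase. No source ties the numbers to cultures, and in the time course the number goes with depth and, at 15 min, with the opposite pool, so the block is an alternative here. With the replicate block, 1 subunit was higher by counts with pretreatment (SEC28, adjusted p = 0.0250 in edgeR) beside RET3, and 7 of 7 were higher by polarity. In the time course the replicate block gave 1 subunit lower by counts at 5 min (RET3, log2 fold change -0.97, adjusted p = 0.000386 in edgeR), 1 higher by polarity at 5 min (SEC26, adjusted p = 0.0375 in limma) and 1 at 15 min (SEC27, adjusted p = 0.0225 in limma). It gave 2 subunits, COP1 and SEC26, whose polarity effect was larger with pretreatment. It raised the genes called over the whole table too, to 840 higher and 752 lower by counts with pretreatment, against 393 and 251 without the block. By polarity it called 2233 of 3979 genes higher with pretreatment and 177 and 112 of 488 at 5 and 15 min. The pool block, fitted to the time course alone, gave 0 calls among the subunits by counts in edgeR and by polarity in limma in each contrast, and over all genes 24 of 488 by polarity at 1 min and 0 in the other contrasts.

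Divided by the median of all genes instead of the subunits, RET3 density was 2.44 in pretreated starved cells and 5.30 in pretreated log phase, a change of scale by construction. Of the 5 most similar genes, 3 remained without centering and 0 with the time course alone. Scaled by TMM, the 5 day log2 ratio was -1.24 for COP1 and -0.93 for SEC21. Fitting each experiment alone gave no count for the difference between them. Depth limited RET3 and SEC28 in the 8 libraries under 500000 reads, where they had at most 12 and 23 reads.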
